A study of Arabidopsis thaliana with 45 samples.

Results

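The small auxin-up RNA (SAUR) family of Arabidopsis thaliana was followed in roots and leaves of seedlings kept in Kennedy Fixation Tubes (KFTs), sealed tubes in which plants are held and then flooded with the fixative RNAlater. Members were the genes whose symbol in the deposited tables is SAUR plus a number, or whose definition contains the word SAUR. This rule found 47 of the 28545 genes, 25 by symbol and 22 by definition only, and the latter carry here the SAUR numbers that RefSeq gives them. A further 30 genes that only RefSeq numbers as SAUR genes fall outside the rule and were kept apart.

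SAUR genes are named for the rapid rise of their RNA after auxin. Auxin is sensed by the TIR1/AFB receptors, which release auxin response factors (ARFs) to switch on SAUR genes, and several SAUR proteins then inhibit PP2C.D phosphatases, which keeps the plasma membrane proton pumps (AHAs) active, acidifies the wall and lets cells expand. Brassinosteroids, light and phytochrome interacting factors act on the same genes, and SAUR RNAs and proteins are short-lived, so the family is often read as a fast growth response, above all in hypocotyls and leaves.

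The study asked how plants respond to the KFT itself, to the minutes of a mock suborbital flight, and to a clinostat. This device rotates the plant so that its orientation to gravity keeps changing. All 45 libraries came from wild-type Columbia-0 seedlings aged 7 days that had a light cycle of 24 h and 8 h of dark storage, with 3 libraries in each of 15 groups. Each library was made from a pair of plants, and the 3 of a group came from the same KFT or plate, so the vessel and its treatment cannot be told apart and the p-values measure the spread between these libraries only. Hypocotyls were set aside at dissection.

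The groups were as follows. Roots of 4 KFTs fixed after 4 h are Q1A, Q1B, Q1C and Q1D, and Q1P holds roots left on a Petri plate, with 0 h in a KFT. The time course holds roots (R) and leaves (L) fixed after 4 h in a KFT (Q1R, Q1L), after 4 h 14 min (Q2R, Q2L), after 4 h 18 min (Q3R, Q3L) and after 4 h 28 min (Q4R, Q4L). The clinostat roots (CR) and leaves (CL) had 4 h 14 min in a KFT and then 4 min of rotation, so that Q3 is their unrotated match in time. The KFTs of the time course stood undisturbed. These times are those of the labels. The methods place Q1 somewhat earlier after sealing, which would shift the time points after it alike, and the text of the study in one place starts the rotation at the mock launch rather than at Q2.

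Values are counts of reads per gene, given as counts per 1000000 counts of the library total (CPM). The lowest total was 29203427 counts, the median 50467925 and the highest 117091661. The organ labels were checked against 5 leaf and 5 root markers, and all 5 of each did not overlap between the 15 leaf and 30 root libraries. The summed leaf markers were at 17083 to 23727 CPM in leaves and at 124 to 494 CPM in roots, where the highest was Q1A replicate 1. The summed root markers were at 208 to 528 CPM in roots and at 0 to 14.1 CPM in leaves, where the highest was Q1L replicate 1 and all others were at most 3.21 CPM. RHD6, a root hair regulator, was at 0 in 14 of the 15 leaf libraries.

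Most members are small genes without introns, and many lie side by side. Of the 47 members, 45 have no intron in the coding sequence, and the annotated length ran from 427 to 1529 bases. Runs of neighbouring members made 6 arrays with 21 members in all, on the RefSeq assembly TAIR10.1. The longest holds SAUR49, SAUR50, SAUR1, SAUR2, SAUR4 and SAUR5 at chr4:16577180-16599568. The others are SAUR61 to SAUR65 at chr1:10301377-10308246, SAUR68, SAUR66 and SAUR67 at chr1:10319732-10323239, SAUR19 to SAUR21 at chr5:5962773-5969190, SAUR22 and SAUR23 at chr5:5974341-5976589, and SAUR70 with SAUR76 at chr5:7043758-7047446.

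SAUR19 to SAUR24 are the members best known for cell expansion. Their first 60 coding bases are shown because the near identity of these genes bears on how reads can be told apart, and capitals mark the 12 positions at which at least 1 of the 6 differs. They were read 5′ to 3′ from TAIR10.1. The minus strand holds SAUR19 at chr5:5963246-5963305, SAUR20 at chr5:5966521-5966580 and SAUR22 at chr5:5974904-5974963. The plus strand holds SAUR21 at chr5:5968527-5968586, SAUR23 at chr5:5976030-5976089 and SAUR24 at chr5:5983840-5983899.

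SAUR19: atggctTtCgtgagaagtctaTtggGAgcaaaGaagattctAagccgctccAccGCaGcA

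SAUR20: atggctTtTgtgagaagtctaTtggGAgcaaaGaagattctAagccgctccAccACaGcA

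SAUR21: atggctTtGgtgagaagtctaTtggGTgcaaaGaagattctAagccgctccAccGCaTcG

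SAUR22: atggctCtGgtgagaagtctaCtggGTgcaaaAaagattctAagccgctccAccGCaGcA

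SAUR23: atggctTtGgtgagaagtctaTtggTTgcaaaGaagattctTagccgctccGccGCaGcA

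SAUR24: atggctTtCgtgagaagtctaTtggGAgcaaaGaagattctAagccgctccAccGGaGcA

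Over whole coding sequences these 6 members shared 87.68% to 95.24% of bases over 15 pairs, against a median of 46.08% over the 1081 pairs of all 47 members. SAUR61 to SAUR68 with SAUR75, the group of SAUR63 that promotes elongation of hypocotyls and stamen filaments, shared 45.41% to 96.97%. SAUR62 and SAUR75 were the closest pair of the family, with 96.97% identity and an unbroken shared run of 162 bases, and SAUR63 and SAUR67 shared a run of 91 bases. The study counted reads that mapped to a single place, so reads from such runs could be lost or split, and the values of SAUR19 to SAUR24, SAUR62, SAUR63, SAUR67 and SAUR75 are uncertain to that degree.

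The 250 bases before each annotated start were searched on both strands for the auxin response element TGTCTC, its variant TGTCGG and the light-related G-box CACGTG. The first 4 letters of both auxin response elements are the same, but they cannot match at the same place on the same strand. The element TGTCTC stood in 6 of 47 members (12.77%) and in 3004 of 27443 promoters of all genes (10.95%). TGTCGG stood in 2 members (4.255%) and in 4.161% of all promoters, and CACGTG in 0 members and 6.486% of all promoters. SAUR66 held 2 copies of TGTCTC and SAUR67 held 1, shown in capitals, from chr1:10320761-10321010 and chr1:10322173-10322422 on the plus strand. They are shown because these neighbours had the lowest unadjusted p-values in Q2L leaves below.

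SAUR66: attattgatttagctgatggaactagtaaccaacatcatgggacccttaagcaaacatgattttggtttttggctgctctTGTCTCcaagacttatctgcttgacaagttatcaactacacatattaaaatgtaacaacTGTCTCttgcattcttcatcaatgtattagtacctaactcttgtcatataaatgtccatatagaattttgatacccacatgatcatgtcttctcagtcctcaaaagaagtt

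SAUR67: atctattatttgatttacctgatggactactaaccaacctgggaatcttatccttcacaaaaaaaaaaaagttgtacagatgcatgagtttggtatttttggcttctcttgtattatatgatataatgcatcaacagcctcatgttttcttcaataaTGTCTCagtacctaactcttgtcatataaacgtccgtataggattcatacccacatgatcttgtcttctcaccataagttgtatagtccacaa

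SAUR76 and SAUR77, the members with the greatest change between KFT and plate, held none of the motifs in this window. Their promoters lie at chr5:7047447-7047696 on the minus strand and chr1:5940042-5940291 on the plus strand. A match or its absence describes these letters only.

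SAUR76: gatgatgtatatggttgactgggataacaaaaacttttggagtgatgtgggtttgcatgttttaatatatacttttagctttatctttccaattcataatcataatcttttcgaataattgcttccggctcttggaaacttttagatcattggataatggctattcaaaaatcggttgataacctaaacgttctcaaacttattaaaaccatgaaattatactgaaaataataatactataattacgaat

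SAUR77: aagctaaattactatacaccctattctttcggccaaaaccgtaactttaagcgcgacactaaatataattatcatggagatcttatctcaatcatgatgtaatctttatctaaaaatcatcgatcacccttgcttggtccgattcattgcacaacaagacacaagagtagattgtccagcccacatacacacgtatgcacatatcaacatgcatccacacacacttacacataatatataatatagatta

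A member counted as detected in a group when its mean was at least 1 CPM. By that measure 38 of 47 members were detected in some group, 15 of them in roots and leaves, 18 in leaves only and 5 in roots only, and 11 were detected in every group. The 9 that were detected in no group are SAUR2, SAUR10, SAUR17, SAUR18, SAUR43, SAUR47, SAUR61, SAUR68 and SAUR75. Leaf groups had 27 to 31 detected members and root groups 16 to 20. The summed level of all members overlapped between the organs, at 190 to 325 CPM in the 15 leaf libraries and 232 to 461 CPM in the 30 root libraries.

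Between genes, levels were compared per kilobase of annotated length. In Q1R the highest member was SAUR32, a regulator of the apical hook, at 130.9 CPM per kb. SAUR78 at 38.4, SAUR36 at 36.2 and SAUR49 at 25.3 CPM per kb followed. In Q1L the highest was SAUR78 at 50.2 CPM per kb, before SAUR32 at 22.7, SAUR6 at 18.4 and SAUR50 at 17.5 CPM per kb. SAUR78 belongs with SAUR76 and SAUR77 to the members whose proteins bind ethylene receptors.

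**Figure D1:**
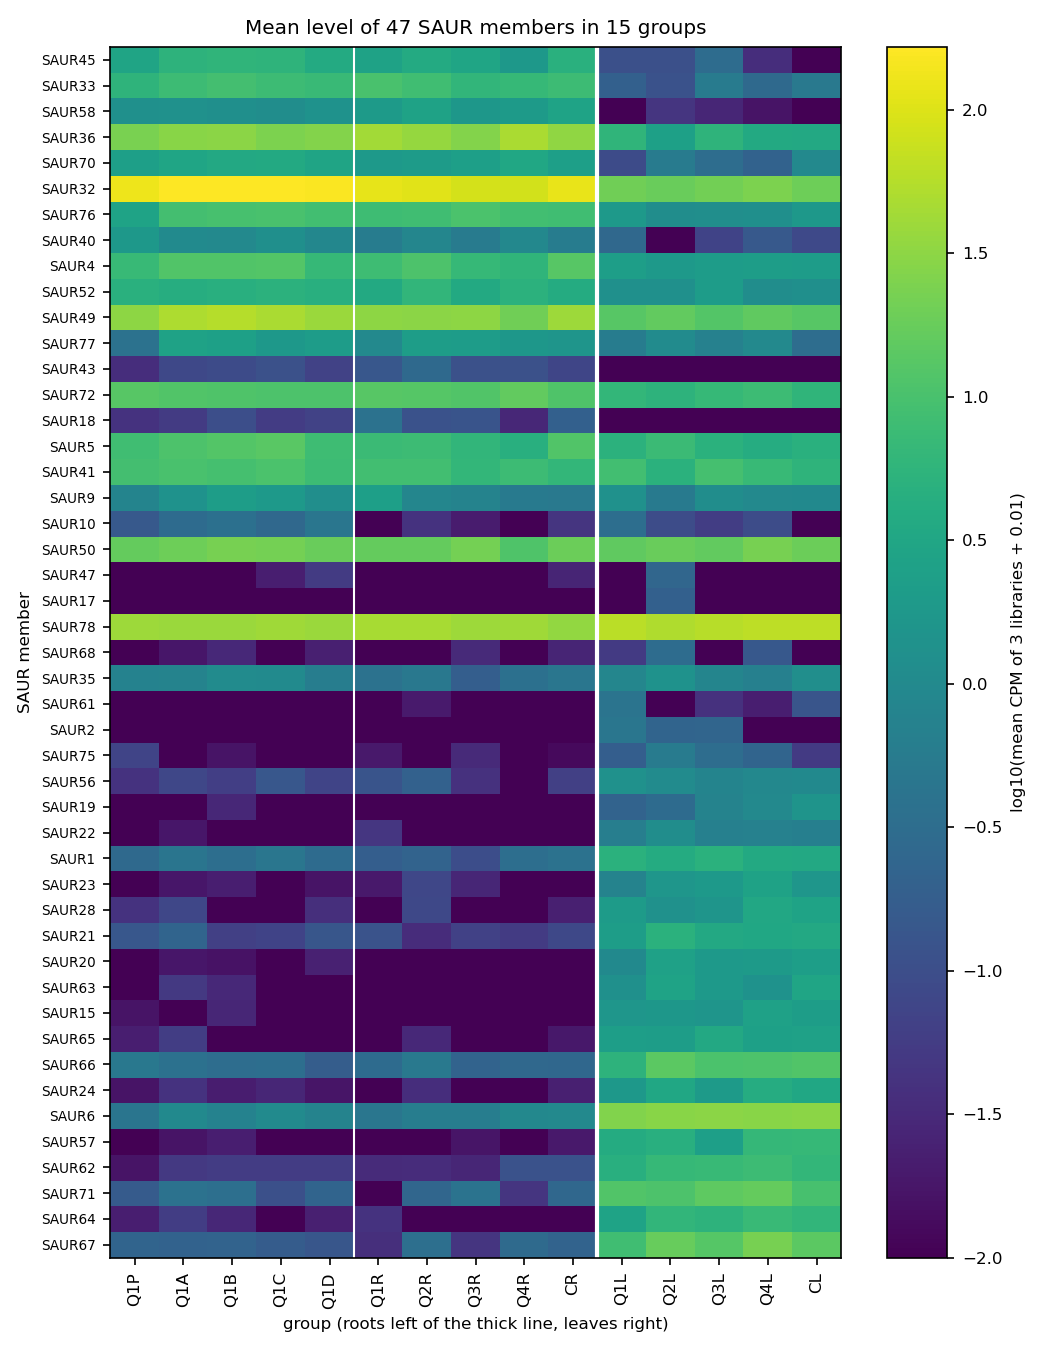
Mean level of each of the 47 SAUR members (rows) in the 15 groups (columns, roots left of the thick line and leaves right), as log10 of the mean CPM of 3 libraries plus 0.01. The rows of SAUR32 and SAUR78 are bright in all groups, and the lower rows, SAUR19 to SAUR24 and most of the SAUR61 group among them, are dark in roots and bright in leaves.

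The members fell into root and leaf sets. Comparing the 12 root libraries Q1R to Q4R with the 12 leaf libraries Q1L to Q4L, edgeR's quasi-likelihood test with Benjamini-Hochberg adjustment over all genes called 38 of the 43 members tested at an adjusted p of at most 0.05, which is 88.4%. Over all genes 71.5% were called, 36.6% higher in roots and 35% higher in leaves, and the median log2 fold change was -4.23 for the members and 0.03 for all genes. It stayed at -4.23 with the 7 members at 0 in 1 organ set to their lower bound. Of the 38, 14 were higher in roots and 24 higher in leaves. SAUR17, SAUR47, SAUR61 and SAUR68 had too few counts to be tested. Members that are present in 1 organ only pass the filter on low counts through that organ, so these counts describe the family and are no support for it. In such bulk samples, fewer cells of a type and less RNA per cell cannot be told apart.

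The expansion members SAUR19 to SAUR24 were leaf genes. All 6 were called higher in leaves, and their summed level was 4.16 to 21.6 CPM over the 15 leaf libraries and 0 to 0.453 CPM over the 30 root libraries. SAUR21 ran from 1.27 to 6.66 CPM in leaves with a median of 3.01, and from 0 to 0.335 CPM in roots with 8 of the 12 libraries at 0. SAUR20 had no count in any of the 12 root libraries. With the roots set at 3 counts over the group, SAUR20 was at least 503-fold higher in leaves (adjusted p = 8.31e-07 by edgeR), and SAUR19, also without a root count, at least 149-fold (adjusted p = 8.74e-05 by edgeR). Of the 12 leaf libraries 1 also had no count of SAUR20 and 2 had none of SAUR19, so the organs overlapped in both.

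The SAUR61 group behaved likewise in level. All 7 of its 9 members that could be tested were called higher in leaves, with a summed level of 17.9 to 64.0 CPM in leaves and 0 to 1.59 CPM in roots. SAUR67 ran from 6.34 to 33.6 CPM in the 12 leaf libraries with a median of 15.1, and from 0 to 0.708 CPM in the 12 root libraries. The root and leaf libraries did not overlap, and the log2 fold change of roots against leaves was -7.42 (SE 0.52, adjusted p = 3.22e-11 by edgeR). SAUR66 had -5.31 and SAUR62 -7.71 in the same fit. SAUR63 had no count in these roots and was at least 487-fold higher in leaves.

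Other members high in leaves stood outside these groups. SAUR6 ran from 16.8 to 47.9 CPM in leaves and from 0 to 1.87 CPM in roots (log2 fold change -5.87, SE 0.57, adjusted p = 7.67e-09 by edgeR). SAUR15, the auxin-induced gene first described as SAUR-AC1, had no count in these roots and a median of 1.66 CPM in leaves, at least 484-fold higher. SAUR1, from the chromosome 4 array, had a log2 fold change of -4.91. In SAUR57, SAUR64 and SAUR65 the root libraries held 2, 7 and 4 counts in all, against 2372, 2913 and 1446 counts in leaves.

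The root set was led by SAUR32. It ran from 65.5 to 129 CPM in roots with a median of 101, and from 14.5 to 41.4 CPM in leaves with a median of 19.5. No leaf library reached the lowest root library, and the log2 fold change was 1.90 (SE 0.16, adjusted p = 7.66e-10 by edgeR). SAUR36, known from auxin-induced leaf senescence, was at 23.9 to 58.0 CPM in roots and 1.27 to 10.4 CPM in leaves (log2 fold change 2.84, SE 0.28). Its highest leaf value lay in Q1L replicate 1, the leaf library with the highest root markers.

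Several lower members were higher in roots. SAUR33 ran from 3.25 to 13.3 CPM in roots and from 0 to 1.15 CPM in leaves, where 5 of 12 libraries were at 0, with a log2 fold change of 4.67. SAUR58 was at 0.817 to 3.09 CPM in roots and at 0 in 9 of the 12 leaf libraries, with a log2 fold change of 7.19. SAUR45 had 4.45 and SAUR70 2.97, at means of 2.82 and 2.37 CPM in roots and 0.130 and 0.288 CPM in leaves, and both overlapped between the organs. SAUR43 and SAUR18 had no count in these leaves and were at least 27.4-fold and 25.1-fold higher in roots, at means of 0.148 and 0.155 CPM. They were also at 0 in 4 and 5 of the 12 root libraries, so the organs overlapped.

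Close relatives went opposite ways. Of the SAUR41 group, whose proteins act in cell expansion, SAUR71 was a leaf gene at 6.82 to 25.2 CPM in leaves and 0 to 0.872 CPM in roots (log2 fold change -8.32). SAUR40 and SAUR72 were higher in roots, with log2 fold changes of 3.62 and 0.71, and SAUR41 had -0.27 (adjusted p = 0.445 by edgeR), with 4.9996 to 11.2 CPM in roots and 1.67 to 15.1 CPM in leaves. Of the ethylene receptor partners, SAUR76 was higher in roots (2.38, SE 0.51) and SAUR78 higher in leaves (-0.77, SE 0.11), while SAUR77 had 0.72 (adjusted p = 0.351). The 2 neighbours at the head of the chromosome 4 array also differed. SAUR49, a senescence regulator, was higher in roots by 0.66 on the log2 scale, and SAUR50, which light induces in cotyledons, had -0.47.

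Scaling by library totals in place of TMM moved the median of all genes from 0.03 to 0.36 and the calls of all genes from 8566 higher and 8193 lower to 11238 higher and 6417 lower. The members then counted 36, with 14 higher and 22 lower in roots, and SAUR50 had -0.13 (adjusted p = 0.362) and SAUR35 -1.46 (adjusted p = 0.0951). SAUR35 also lost its call without any of 19 of the 24 libraries (highest adjusted p = 0.103, without Q2L replicate 3). SAUR10 without Q2L replicate 3, SAUR75 without Q1L replicate 2, and SAUR18 and SAUR43 without Q4R replicate 3 had an adjusted p of 1.

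Among the genes that act around SAURs, 31 of the 37 partners tested were called (83.8%, beside 71.5% of all genes), 13 higher in roots and 18 higher in leaves. All 5 ARFs were higher in roots, from 0.31 to 1.04 on the log2 scale, with ARF19 at 1.04. All 7 brassinosteroid, PIF and HBI1 regulators were higher in leaves, among them HBI1, an activator of cell elongation, at -6.06, and PIF4 at -6.18. Of the pumps, AHA2 was higher in roots (1.88) and AHA3 higher in leaves (-2.48). The called phosphatase genes of the PP2C.D clade went both ways. AT5G02760 was at -6.02 and AT4G38520 at -0.57. Called higher in roots were AT5G06750 at 1.40, AT5G66080 at 1.01, AT3G55050 at 0.58 and AT3G17090 at 0.19. Of the receptor genes, TIR1 (-0.51), AFB4 (-0.40) and AFB5 (-0.27) were called higher in leaves and AFB1 (0.73) higher in roots. TIR1 and AFB4 also had the lower mean CPM in roots. AFB5 had means of 64.8 CPM in roots and 62.1 CPM in leaves, so its direction differed between CPM and the fit with TMM scaling. The partners were not counted under scaling by library totals, so small changes among them are uncertain.

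**Figure D2:**
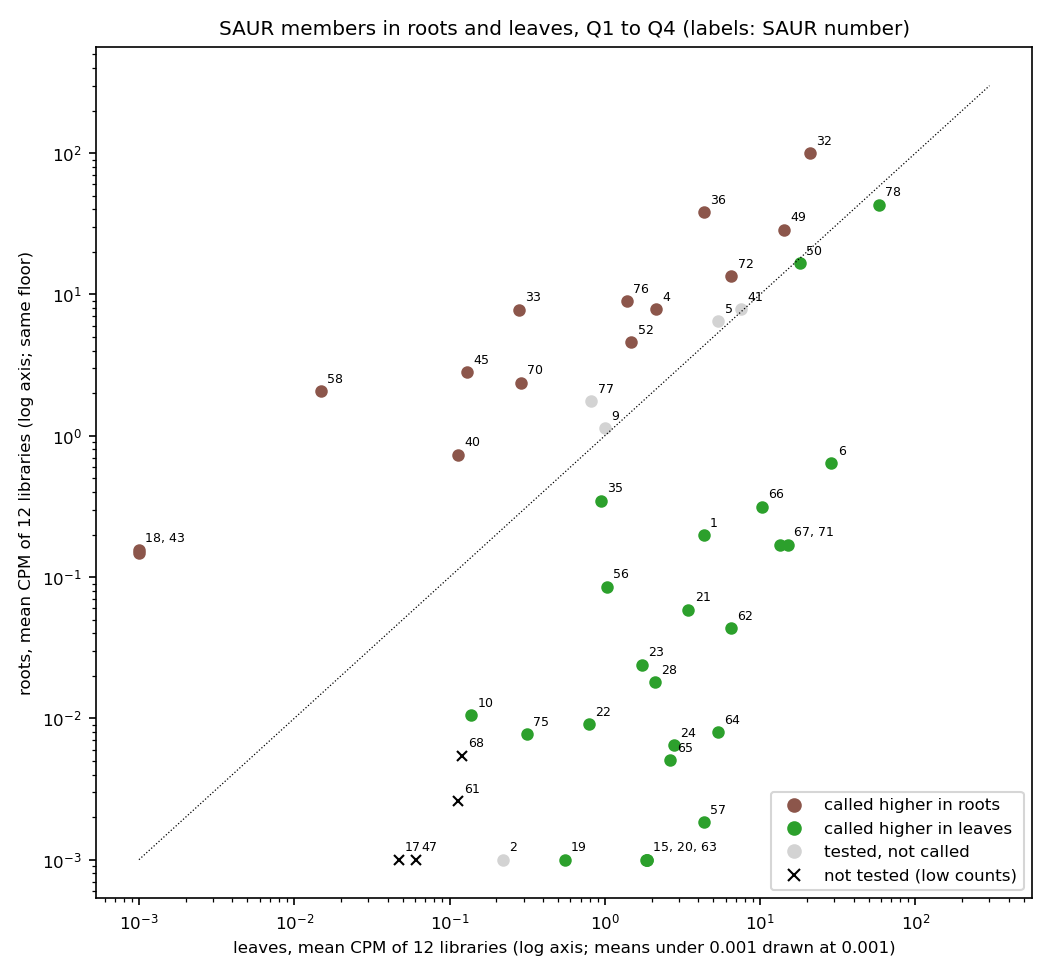
Mean CPM of each SAUR member (point, with its SAUR number) in the 12 leaf libraries (x, log axis) and the 12 root libraries (y, log axis) of Q1 to Q4, with the dotted line at equal level. Brown points (14) were called higher in roots and green points (24) higher in leaves, and SAUR32 lies at the top while SAUR6, SAUR66, SAUR67 and SAUR71 lie far right and low.

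The comparison of the KFTs with the plate asked what sealing in the tube changes in roots. SAUR76, SAUR77 and SAUR9 were higher in the KFTs, and no member was called lower. SAUR76 stood between 7.13 and 11.97 CPM in the 12 KFT libraries with a median of 8.90, and at 3.41, 2.40 and 2.68 CPM on the plate. SAUR77 stood between 1.62 and 3.70 CPM with a median of 2.07, and at 0.346, 0.539 and 0.264 CPM on the plate. In both genes every library of Q1A to Q1D lay above every plate library. Q1R roots, also kept in a KFT, were not in this comparison and are given below.

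The log2 fold change was 1.73 for SAUR76 (SE 0.18, adjusted p = 0.000273) and 2.54 for SAUR77 (SE 0.30, adjusted p = 0.00103) by edgeR. SAUR78, the other ethylene receptor partner, did not follow them, with 30.1 to 49.6 CPM in the KFTs, 31.8, 31.2 and 55.2 CPM on the plate, and a log2 fold change of -0.01. SAUR9, whose protein binds PP2C.D phosphatases, was at 1.03 to 2.65 CPM in the KFTs and at 0.750, 0.781 and 0.811 CPM on the plate. Its libraries did not overlap either, and its log2 fold change was 1.04 (SE 0.21, adjusted p = 0.0371).

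These 3 were 12% of the 25 members tested, while 0.847% of all genes were called, and 0.469% were called higher. The median log2 fold change of the tested members was 0.40, with 18 above 0 and 7 below, beside a median of -0.01 for all genes. SAUR49 also did not overlap, at 36.4 to 70.6 CPM in the KFTs against 29.5, 34.0 and 31.2 CPM on the plate (log2 fold change 0.60, adjusted p = 0.132). None of SAUR19 to SAUR24 had enough counts in these roots to be tested. Of the 37 partners tested, 0 were called by edgeR, with 3 at an unadjusted p under 0.05. The summed leaf markers were at 130 to 494 CPM in the KFTs and 124 to 278 CPM on the plate. The 494 CPM was Q1A replicate 1, and all other KFT libraries were at most 195 CPM. The summed root markers were at 213 to 354 CPM in the KFTs and 208 to 358 CPM on the plate. A part of these markers in the result was not tested.

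SAUR76 and SAUR77 kept their calls without each of the 15 libraries in turn, with log2 fold changes of 1.62 to 1.85 and 2.33 to 2.87. With the 3 libraries of each vessel summed, SAUR76 alone was called, SAUR77 had 2.56 (adjusted p = 0.0583) and SAUR9 1.08 (adjusted p = 0.547). SAUR9 kept its call in 5 of the 15 fits. It was lost without any plate library (adjusted p = 0.153, 0.116 and 0.181), without Q1A replicate 3 (0.0606), Q1B replicate 1 (0.0607), Q1B replicate 2 (0.0501) or Q1C replicate 2 (0.0552), and without Q1D replicates 1, 2 or 3 (0.0529, 0.0762 and 0.0714).

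Each KFT was also set against the plate, and these 4 comparisons share the plate libraries. SAUR76 had log2 fold changes of 1.67, 1.80, 1.83 and 1.61 in Q1A, Q1B, Q1C and Q1D, and SAUR77 had 2.80, 2.67, 2.21 and 2.49. In each the KFT libraries lay above the plate libraries. By edgeR, 0 members were called in Q1A, Q1B and Q1C, where 6, 6 and 8 had an unadjusted p under 0.05 and DESeq2 called 3, 4 and 3. Q1D had 2 calls of 24 tested, SAUR76 (adjusted p = 0.0229) and SAUR77 (adjusted p = 0.0392), which DESeq2 also counted as 2. Of all genes edgeR called 0.0613%, 0.0893%, 0.0471% and 0.17%, and 0.113% were called higher in Q1D. Here and below, the shares of all genes are those of edgeR at an adjusted p of at most 0.05. No such share is given for counts by DESeq2 or at an unadjusted p, so those counts cannot be set against a background. Both Q1D calls were lost without any Q1D library or without Q1P replicate 3, where the adjusted p was 0.113 to 0.136 for SAUR76 and 0.15 to 0.215 for SAUR77. Without Q1B replicate 1 the count for Q1B rose to 1, with no share of all genes given for that fit.

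Among the 4 KFTs no member differed by the F test of edgeR over 25 members, with 0 called of all genes (0%), 1 member at an unadjusted p under 0.05, and 0 called by DESeq2. The lowest adjusted p was 0.888.

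**Figure D3:**
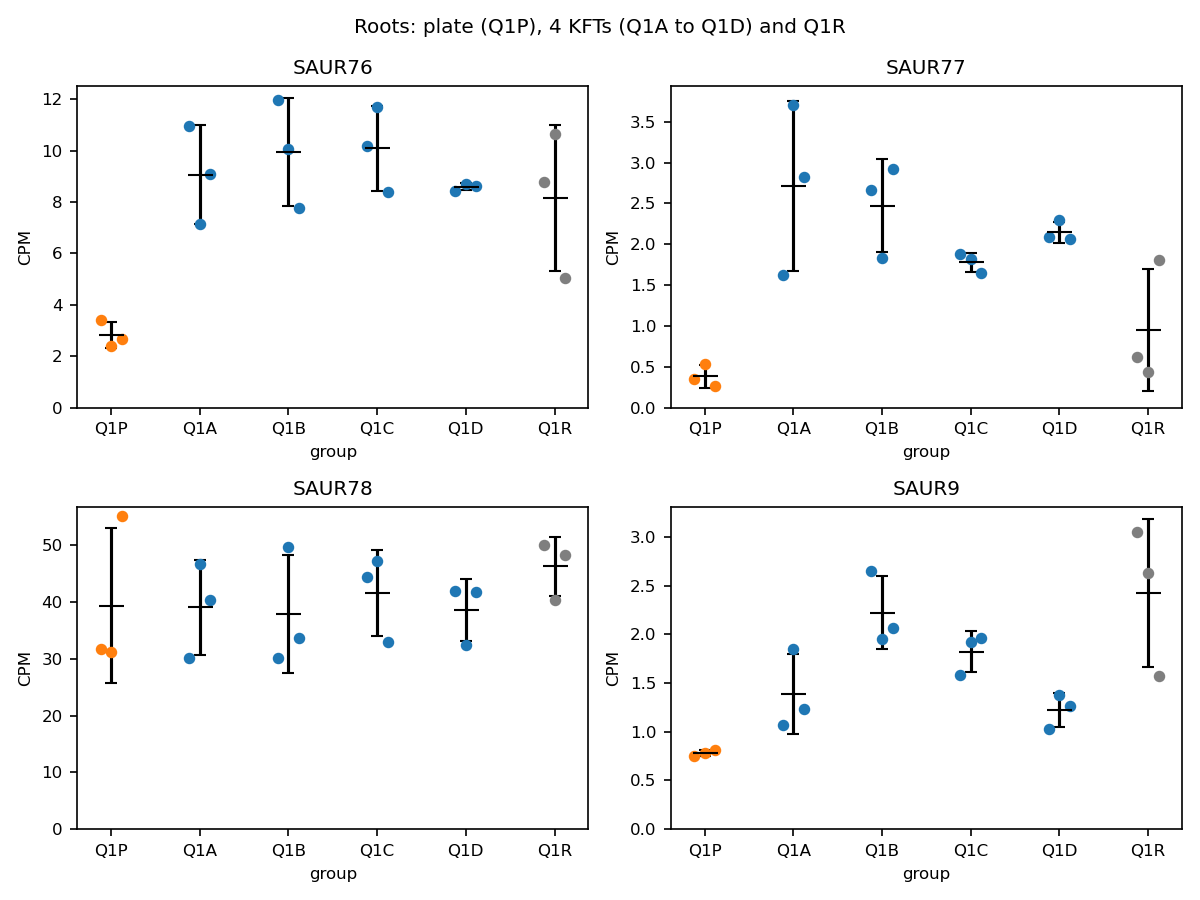
CPM of SAUR76, SAUR77, SAUR78 and SAUR9 (panels, each from 0) in roots on the plate (Q1P, orange), in the 4 KFTs (Q1A to Q1D, blue) and in Q1R (grey), with each point a library and the bars the mean and SD of 3. The plate points of SAUR76, SAUR77 and SAUR9 lie under all points of Q1A to Q1D, and those of SAUR78 overlap them.

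Q1R roots had the same labelled treatment as Q1A to Q1D, and the comparison of these sets shows how far members differ without a labelled difference. Of 26 members tested 8 were called, which is 30.8%, beside 27.5% of all genes, a share near that of the members. SAUR36 was higher in Q1R and the other 7 lower, beside 12.2% of all genes higher and 15.3% lower, with a median log2 fold change of -0.45 for the members and -0.01 for all genes.

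SAUR10, a light-regulated growth gene, had 0 counts in the 3 Q1R libraries and 0.154 to 0.593 CPM in the 12 KFT libraries, at least 21.6-fold lower (adjusted p = 0.000285 by edgeR). SAUR71 likewise had 0 counts in Q1R and 0.0395 to 0.692 CPM in the KFTs, at least 15.9-fold lower (adjusted p = 0.00212). SAUR10 and SAUR71 passed the filter on low counts through the KFT libraries alone, at means of 0.334 and 0.255 CPM. Their calls describe these libraries and are no support for a difference between the sets. SAUR49 was at 31.5, 32.6 and 32.8 CPM in Q1R and at 36.4 to 70.6 CPM in the KFTs (log2 fold change -0.61, adjusted p = 0.00951). These 3 did not overlap between the sets.

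The other called members overlapped. SAUR77, called between KFT and plate, was at 0.614, 0.437 and 1.81 CPM in Q1R, and so had 2 libraries under the lowest library of Q1A to Q1D. The lowest Q1R value also lay under the highest plate value, so Q1R and the plate overlapped in SAUR77. For SAUR77 the log2 fold change of Q1R against Q1A to Q1D was -1.27 (SE 0.39, adjusted p = 0.0245). SAUR76 had -0.25 (adjusted p = 0.37) at 8.78, 10.7 and 5.06 CPM in Q1R. SAUR32 had -0.51 (0.0224), SAUR45 -0.92 (0.0187), SAUR5 -0.61 (0.0391) and SAUR36 0.56 (0.0224), with the adjusted p from edgeR in brackets. SAUR9 had 0.54 (adjusted p = 0.113).

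The count was 4 without Q1R replicate 1, of which 3 were among these 8, and 4 without Q1R replicate 2, all among the 8. SAUR77, SAUR45 and SAUR36 lost theirs without either library (adjusted p = 0.108 and 0.0982 for SAUR77). SAUR32 lost its call without Q1R replicate 1 or 3, where the adjusted p was 0.113 and 0.0587. SAUR5 lost its call without any Q1R library and without Q1A replicate 3, Q1B replicate 2, Q1C replicate 1, Q1D replicate 2 or Q1D replicate 3 (adjusted p up to 0.131). Scaling by library totals called 7 members, without SAUR5 (adjusted p = 0.0518), and turned the split of all genes from 2694 higher and 3362 lower to 3310 and 3054. The summed leaf markers were at 239 to 342 CPM in Q1R and the summed root markers at 381 to 528 CPM, against 213 to 354 CPM in the KFTs, and their part in the result was not tested. Of the 37 partners 8 were called (21.6%, beside 27.5% of all genes), 4 higher in Q1R, with AHA10 at 1.20, HBI1 at 1.20, BES1 at 0.61 and ARF6 at 0.37, and 4 lower, with AT5G02760 at -1.70, AHA3 at -0.51, AT5G06750 at -0.28 and AT3G51370 at -0.26.

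The time course asked what the minutes of the flight profile add. In roots 1 member was called, SAUR36 in Q3R. It was at 45.6, 46.0 and 36.2 CPM in Q1R, at 29.5, 28.2 and 23.9 CPM in Q3R and at 52.5, 58.0 and 32.1 CPM in Q4R. Q3R lay wholly under Q1R (log2 fold change -0.59, SE 0.14, adjusted p = 0.0407 by edgeR), and Q4R overlapped Q1R. Q1A to Q1D, with the same labelled treatment as Q1R, had a mean of 28.0 CPM, beside 42.6 CPM in Q1R and 27.2 CPM in Q3R. SAUR36 was itself called between Q1R and that set, so time and vessel cannot be told apart in the Q3R call.

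That call is 1 of 21 tested in Q3R, beside 4.54% of all genes called and 1.79% called lower. It was kept only without Q1R replicate 3 of the 6 libraries, and the adjusted p was 0.0997 and 0.141 without Q1R replicates 1 and 2, and 0.0709, 0.0816 and 0.112 without Q3R replicates 1, 2 and 3. In Q2R edgeR called 0 of 25 (0.363% of all genes), with 2 at an unadjusted p under 0.05, and in Q4R 0 of 22 (0.913%), with 3. DESeq2 called 0, 2 and 0 in Q2R, Q3R and Q4R. SAUR32 was at 105, 129 and 118 CPM in Q1R, at 86.1, 91.9 and 87.3 CPM in Q3R, and at 96.5, 88.8 and 65.5 CPM in Q4R, with adjusted p of 0.0921 and 0.287 by edgeR.

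SAUR76, high in every KFT, was at 10.49, 8.03 and 6.22 CPM in Q2R, at 8.68, 8.20 and 15.3 CPM in Q3R and at 9.25, 11.04 and 5.60 CPM in Q4R, and these overlapped Q1R. Of the partners, the auxin receptor genes AFB1 (0.78, adjusted p = 0.0235) in Q3R, named GRH1 in the files, and TIR1 (0.56, adjusted p = 0.0408) in Q4R were called higher than in Q1R, as was AHA11 in Q3R (0.60, adjusted p = 0.0265). These are single genes of the list, beside 4.54% of all genes called in Q3R and 0.913% in Q4R. They are no result about the partners as a list.

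In leaves no member was called by edgeR. Q2L had 0 of 35 called (0% of all genes) and 3 at an unadjusted p under 0.05, Q3L 0 of 36 (0.00979%) and 1, and Q4L 0 of 35 (0%) and 4. DESeq2 called 1, 0 and 0. The values of the leaf arrays are still given, since Q1L lay low in several. SAUR66 was at 4.02, 6.77 and 5.22 CPM in Q1L and at 10.9, 17.3 and 14.1 CPM in Q2L (log2 fold change 1.41, SE 0.29, adjusted p = 0.291). SAUR67 was at 7.15, 11.3 and 6.34 CPM in Q1L and at 17.6, 15.1 and 19.3 CPM in Q2L (log2 fold change 1.09, SE 0.27, adjusted p = 0.38). In both, Q2L lay above Q1L without overlap. Of the 35 members tested 5 did not overlap there, with no share of all genes to set beside that count.

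The summed SAUR61 group was at 24.1, 33.6 and 17.9 CPM in Q1L. It was at 49.7, 48.9 and 51.1 CPM in Q2L, at 38.9, 25.1 and 60.3 CPM in Q3L, and at 55.6, 52.1 and 50.2 CPM in Q4L. Q2L and Q4L lay above Q1L, and Q3L overlapped it. SAUR19 to SAUR24 summed to 7.45, 7.89 and 4.16 CPM in Q1L and to 19.1, 11.003 and 11.7 CPM in Q2L. They summed to 12.7, 15.4 and 12.8 CPM in Q4L, and Q3L again overlapped Q1L at 8.46, 6.46 and 17.1 CPM. Other sums did not rise alike. The SAUR41 group went from a mean of 27.3 CPM in Q1L to 21.2 CPM in Q2L, and SAUR76 to SAUR78 from 63.0 to 54.6 CPM. All members together went from 229 to 250 CPM, and in each of these Q1L and Q2L overlapped. These sums describe libraries of single vessels and carry no test.

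The clinostat comparison asked what 4 min of rotation changes. Against the time-matched Q3R, edgeR called 0 of 23 members in CR (0.00475% of all genes), with 3 at an unadjusted p under 0.05, and DESeq2 called 2. The neighbours SAUR4 and SAUR5 of the chromosome 4 array had the lowest p-values. SAUR5 was at 9.03, 12.3 and 13.7 CPM in CR and at 6.38, 6.38 and 4.83 CPM in Q3R (log2 fold change 0.98, SE 0.22, adjusted p = 0.204). SAUR4 was at 10.6, 13.7 and 16.3 CPM in CR and at 8.61, 7.15 and 4.38 CPM in Q3R (log2 fold change 0.99, SE 0.26, adjusted p = 0.225).

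Both lay above Q3R without overlap. Without CR replicate 1, the deepest library, 3 members were called, SAUR4, SAUR5 and SAUR32. The share of all genes called in that smaller fit is not given, so this count has no background. Against the 9 libraries of Q1R, Q2R and Q3R together, SAUR5 was the only call of 27 members tested, beside 2.61% of all genes called and 2.11% called higher. The 9 controls ran from 4.83 to 8.75 CPM with a median of 6.61, all under CR (log2 fold change 0.75, SE 0.17, adjusted p = 0.03). These control sets share libraries with the time-matched comparison. The unrotated roots of Q1A to Q1D, which were not among the controls, had a SAUR5 mean of 11.3 CPM, beside 11.7 CPM in CR. SAUR5 was also called between that set and Q1R, which had the same labelled treatment, so these means do not compare rotation alone. In the SAUR5 call, rotation and vessel cannot be told apart. The SAUR5 call was lost without CR replicate 2 (adjusted p = 0.266), CR replicate 3 (0.3), Q2R replicate 2 (0.0601) or Q1R replicate 3 (0.05004). Without CR replicate 1 the count rose to 4, and the share of all genes in that fit is not given. Among the partners only the pump gene AHA2 was called in that comparison (log2 fold change -0.37, adjusted p = 0.0259 by edgeR), beside 2.61% of all genes. It is a single gene and no result about the partners as a list.

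In CR, SAUR76 was at 8.57, 8.23 and 8.84 CPM and SAUR77 at 1.43, 1.81 and 1.53 CPM, with log2 fold changes against the 9 controls of -0.05 and -0.03. The SAUR76 values lay within the range of the 12 libraries of Q1A to Q1D, and 2 of the 3 SAUR77 values lay under it. CR against Q1R gave 0 calls of 22 (1.6% of all genes, 4 at an unadjusted p under 0.05, 1 by DESeq2). CR against Q1R and Q3R gave 0 of 24 (0.227%, 4 and 1).

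In leaves, CL against Q3L gave 0 calls of 35 members by edgeR (0% of all genes), with 3 at an unadjusted p under 0.05 and 0 by DESeq2. SAUR19 to SAUR24 summed to 8.90, 21.6 and 7.84 CPM and the SAUR61 group to 30.6, 64.0 and 36.5 CPM in CL, both overlapping Q3L. Against Q1L, against Q1L and Q3L, and against Q1L, Q2L and Q3L, 0 of 35, 37 and 39 members were called (0.0682%, 0% and 0% of all genes), with 2, 6 and 2 at an unadjusted p under 0.05, and DESeq2 called 1, 0 and 0.

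Whether a change differed between roots and leaves was tested as an interaction. By edgeR 0 members were called in the 3 time points against Q1 or in the clinostat set against Q3, of 41, 39, 39 and 38 tested (0.0977%, 0.0089%, 0.00889% and 0.0311% of all genes). At an unadjusted p under 0.05 there were 5, 2, 4 and 5 members, and DESeq2 called 0, 1, 0 and 1.

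**Figure D4:**
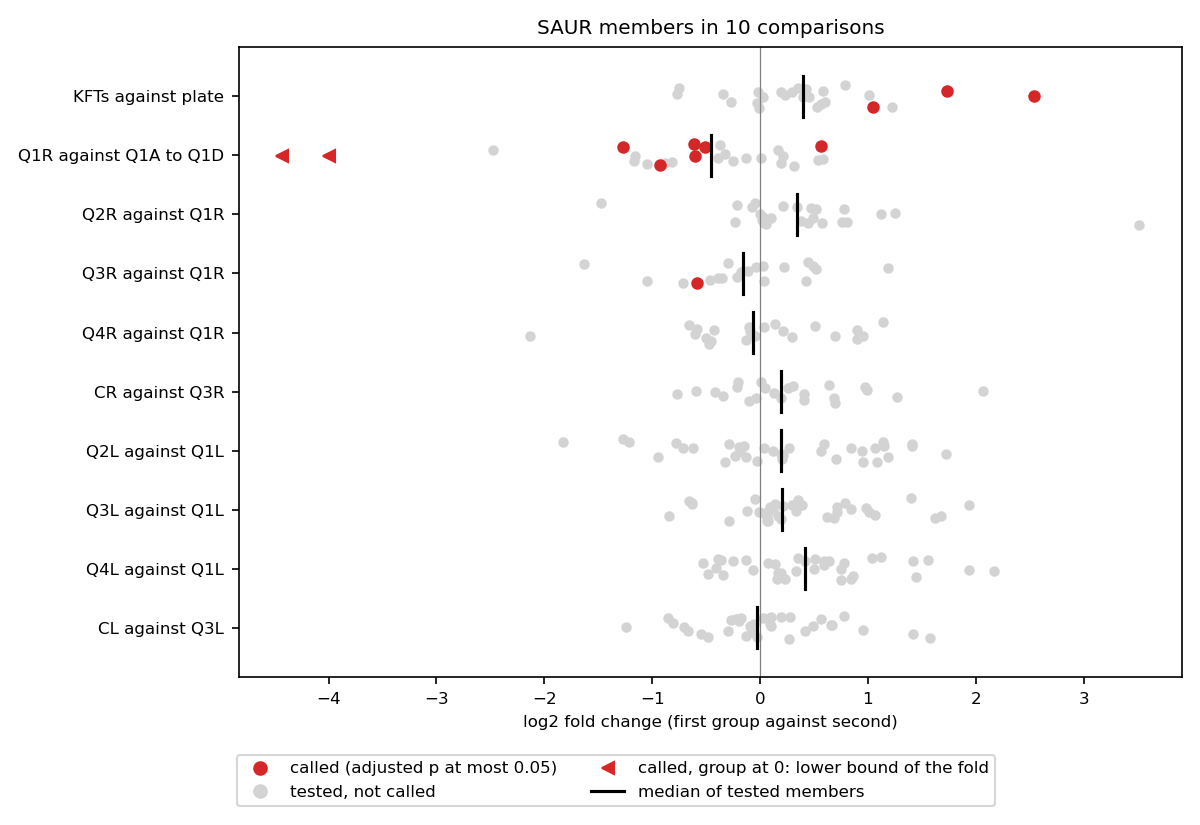
Log2 fold change (x) of each tested SAUR member in 10 comparisons (rows), red where the adjusted p was at most 0.05, with a black bar at the median and triangles at the lower bound for members with no count in Q1R. Red points lie in the rows of KFTs against plate (3), Q1R against Q1A to Q1D (8) and Q3R against Q1R (1).

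**Figure D5:**
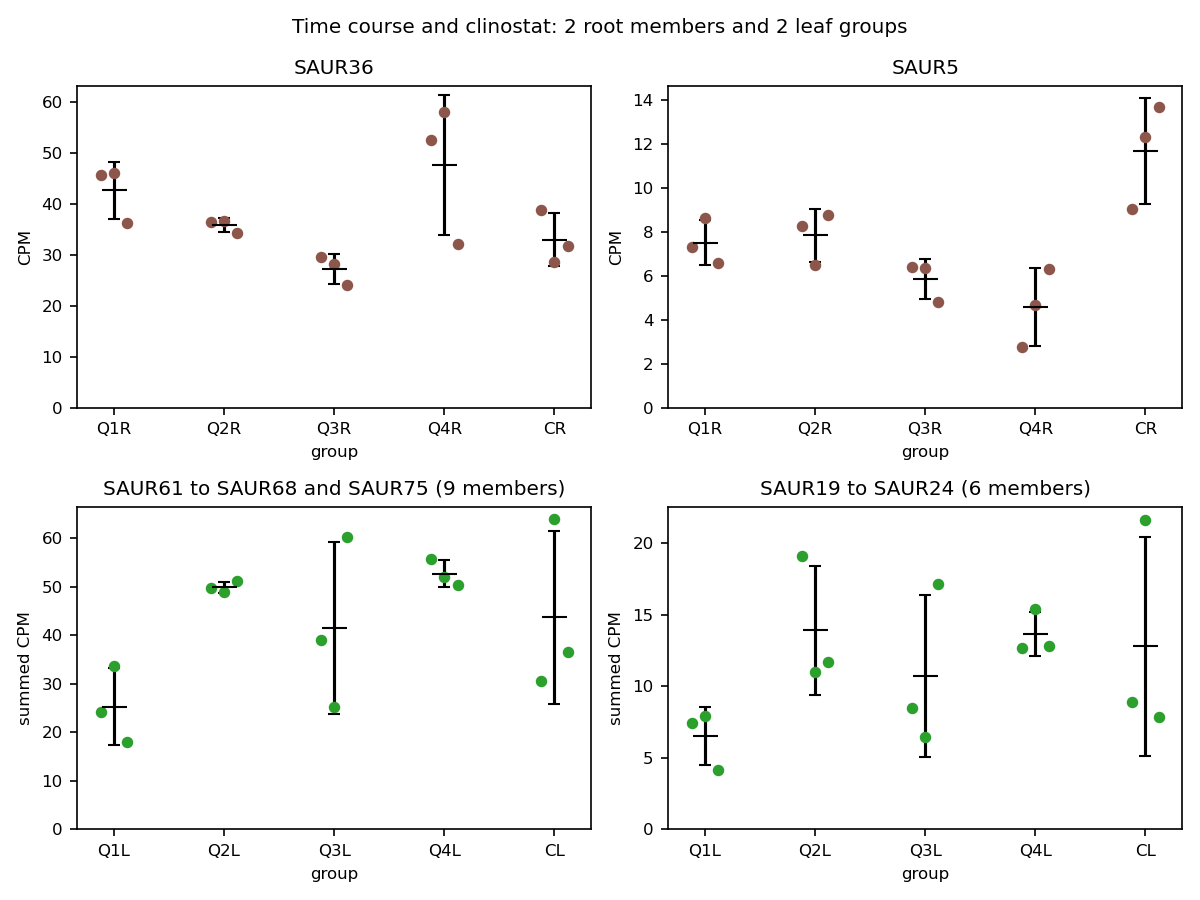
CPM of SAUR36 and SAUR5 in roots (upper panels) and summed CPM of the SAUR61 group and of SAUR19 to SAUR24 in leaves (lower panels) by group, with each point a library and the bars the mean and SD of 3. Q3R lies under Q1R for SAUR36, CR lies above Q3R for SAUR5, and Q2L and Q4L lie above Q1L in both lower panels.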

How the data were processed

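The members and lists were chosen with earlier results of these data known. Per the labels and the study's methods, the authors trimmed reads of directional poly(A) libraries with cutadapt, mapped them to TAIR10 with STAR, removed duplicates with SAMtools and in-house scripts, and counted uniquely mapped reads per gene with HTSeq. Whether counting used the strand is not given in the sources used here. The 24 deposited tables hold these counts for 45 libraries, and 0 values differed among the 2955609 that several tables repeat. Their columns of the authors' DESeq2 results (log2 fold change, p-value and adjusted p-value) were not used.

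Groups come from sample titles. The libraries of each comparison entered a fit of their own in edgeR 4.0.16 (R 4.3.3) after filterByExpr and TMM scaling. The quasi-likelihood p-values were adjusted by Benjamini-Hochberg across every gene tested, and genes were called at an adjusted p of at most 0.05. Where 1 group had no count, the fold is a lower bound with 3 counts over that group, which covers counting error only. The code was tested on simulated data. Alternatives were DESeq2 1.42.0, RLE size factors, no filter on low counts, the replicate number as a block, the libraries of a vessel summed, all 15 libraries of a tissue in 1 fit, CPM on TMM effective sizes and each library left out. Scaling by library totals, and leaving out libraries for CR against Q1R, Q2R and Q3R, were chosen after seeing the data. Same-numbered libraries were checked for pairing.

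Named genes are the called members, members of the subgroups, members with a mean of at least 10 CPM in any group, called partners and the markers. SAUR66, SAUR67, SAUR4, SAUR5, SAUR9 and the other members named outside that rule were chosen after their values were seen. Gene names and sequences come from RefSeq (TAIR10.1), which matched 28285 genes. Its SAUR number for AT1G29510 differs from the SAUR67 of the files, which was kept. The title of Q4L replicate 1 was followed where its source name gave Q3.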

Additional observations from a re-analysis of the deposited data

How the results depend on the processing

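No called member changed direction under the alternatives run, while scaling by library totals moved the median of all genes for Q1R against Q1A to Q1D from -0.01 to 0.03 and turned their split of calls (2694 higher and 3362 lower, then 3310 and 3054). DESeq2 called 3 members in Q1A, 4 in Q1B and 3 in Q1C against Q1P, 2 in Q3R against Q1R, 1 in Q2L against Q1L, 2 in CR against Q3R, 1 in CR against Q1R, 1 in CR against Q1R and Q3R, 2 in CR against Q1R, Q2R and Q3R, 1 in CL against Q1L, and 1 each in the root minus leaf change of Q3 against Q1 and of the clinostat set against Q3, and it did not call SAUR18 for roots against leaves (adjusted p = 0.11). The shares of all genes called by DESeq2 or without a filter on low counts are not given here. Without a filter on low counts 1 member was called in Q1A against Q1P, 1 in Q1C against Q1P and 1 in CR against Q1R and Q3R, while SAUR9 for KFTs against plate (adjusted p = 0.0527) and SAUR35 for roots against leaves (0.0525) lost their calls. Counts summed per vessel gave 1 call for KFTs against plate, and all 15 root libraries in 1 fit gave 0 for Q3R against Q1R. RLE size factors moved no count of calls past 1.5 times, but SAUR35 had an adjusted p of 0.0504 in roots against leaves.

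Without each library in turn, the calls ran from 2 to 4 for KFTs against plate, 0 to 1 for Q1B and 0 to 2 for Q1D against Q1P, 4 to 8 for Q1R against Q1A to Q1D, 0 to 1 for Q3R against Q1R, 0 to 3 for CR against Q3R, 0 to 4 for CR against Q1R, Q2R and Q3R, and 35 to 38 for roots against leaves, and stayed at 0 in Q1A and Q1C against Q1P, among the 4 KFTs, in Q2R, Q4R and the leaf time points against Q1, and in CL against Q3L. For the other controls of the clinostat and the interactions no library was left out. No share of all genes is given for the fits that left a library out, so their counts have no background.

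Same-numbered libraries showed little correlation, but the check cannot exclude pairing. Per the methods, leaves and roots were dissected from the same sets of plants. Whether their numbers match such sets is not known, and the fits took root and leaf libraries as independent. In 0 of 20 comparisons was every pair's correlation of deviations over 0.1 (median 0.02). In 2, Q1B against Q1P and Q3R against Q3L, every library correlated best with its own number. With the replicate block, the count fell to 0 for Q1D against Q1P and moved no other count past 1.5 times. Single genes that crossed the threshold under the block were SAUR9 for KFTs against plate (adjusted p = 0.0556), SAUR76 and SAUR77 for Q1D (0.0584 and 0.0855), SAUR5 for Q1R (0.0518) and SAUR35 for roots against leaves (0.0754). In the shallowest library, Q4L replicate 1, 31 of 47 members had at least 1 count, and the change that could be detected in members under 1 CPM was not estimated.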

Other observations

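The 30 SAUR genes that only RefSeq numbers also differed between the organs. Of 26 tested between roots and leaves, edgeR called 23 (88.5%, beside 71.5% of all genes), with 9 higher in roots and 14 higher in leaves. SAUR37 had a mean of 73.7 CPM in roots and 0.531 CPM in leaves (log2 fold change 8.60, adjusted p = 4.84e-11), and SAUR14, a light-regulated member, had 0.0377 CPM in roots and 32.0 CPM in leaves (-11.46, adjusted p = 8.77e-16). SAUR55 and SAUR30 were also higher in roots, with log2 fold changes of 3.29 and 2.73. Between KFT and plate 0 of 18 were called by edgeR, with 2 at an unadjusted p under 0.05. These genes were named after their values were seen.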
